A study of Homo sapiens with 6 samples.

Results

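Neuregulins and the ErbB receptors that bind them were described in cell lines of atypical teratoid rhabdoid tumour (AT/RT), a brain tumour of early childhood that is defined by loss of SMARCB1 or, less often, SMARCA4. The genes were chosen by symbol alone and comprise 4 ligands (NRG1, NRG2, NRG3 and NRG4) and 4 receptors (EGFR, ERBB2, ERBB3 and ERBB4), 8 of the 36532 genes in the deposited tables, with 119 of the 173113 transcripts. Total RNA had been sequenced from the established human AT/RT lines CHLA 02, CHLA 04 and CHLA 05 and from CHLA 06, all of them from ATCC, in 6 libraries. CHLA 04 and CHLA 06 each had 2 technical replicates, whereas CHLA 02 and CHLA 05 had 1 library each. The labels name no gene transfer or drug for any line. All lines were grown in DMEM:F12 with 20 ng/mL EGF, 20 ng/mL basic FGF and 2% B-27, so a ligand of EGFR was present in the medium of every library. With 1 biological sample per line, no test between lines was possible, and the differences below compare these cultures.

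Neuregulins are membrane-anchored growth factors with an EGF-like domain, which proteases release from the cell surface. They bind ERBB3 or ERBB4, which then pair with each other, with EGFR or with ERBB2. ERBB2 has no known ligand of its own and ERBB3 has a very weak kinase, so each signals through its partners. In the nervous system this pathway is known for the growth of Schwann cells and their myelin, for the migration of neurons and for the formation of synapses.

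Values are TPM, the length-corrected share of a transcript scaled to a fixed total per library, summed over the transcripts of a gene, so that levels of different genes can be compared. Recovered transcript reads, in units of 1e+06, numbered 10.3 to 20.5 per library, and a single read on 1 kb of transcript equalled 0.117 to 0.236 TPM. Errors are the SD between technical replicates (n = 2) and 95% exact Poisson intervals of the reads, which cover counting error only. A difference was counted as past 4-fold where it reached 2 on the log2(TPM + 1) scale, a scale that understates the change of low genes, among the 16035 genes that had at least 1 TPM in a line.

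CHLA 02 lay between CHLA 04 and CHLA 06 for most genes that set these lines apart. Of the 2316 genes that differed by 4-fold or more between CHLA 04 and CHLA 06, 2144 (92.6%) had a level in CHLA 02 between those 2 lines, against 65.4% for CHLA 05. Genes with at least 10 TPM in 1 line and under 1 TPM in every other line numbered 0 in CHLA 02 and 73 in CHLA 05, with 1 each in CHLA 04 and CHLA 06. Of the 4 members that differed by 4-fold or more between CHLA 04 and CHLA 06, NRG1, EGFR and ERBB4 were intermediate in CHLA 02. NRG2 had 5.28 TPM in CHLA 02 and a mean of 5.06 TPM in CHLA 06, with overlapping counting intervals, so its place was not settled. Whether the CHLA 02 library holds RNA of more than 1 kind of cell was not tested. In bulk RNA, fewer cells of a type and less RNA per cell cannot be told apart.

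Some AT/RT marker genes separated the lines, whereas others of the same lists did not. GLI2, a transcription factor of the sonic hedgehog pathway, had 37.4 TPM in CHLA 02, 167 and 126 TPM in CHLA 04, 147 TPM in CHLA 05, and 15.4 and 14.4 TPM in CHLA 06. MYC, the proto-oncogene that names another subgroup, had 79.7 TPM in CHLA 02, 94.1 and 72.1 TPM in CHLA 06, and 1.44 TPM or less in the other lines. TYR, the gene that names the remaining subgroup, was at 0 in all 6 libraries. TYRP1, another pigment gene of that subgroup's list, had 30.8 TPM in CHLA 02, 71.5 and 63.0 TPM in CHLA 06, and 0.0508 TPM or less in CHLA 04 and CHLA 05. MITF, of the same list as TYRP1, went the other way, with 6.13 and 2.85 TPM in CHLA 04 and 1.43 and 0.874 TPM in CHLA 06. PTCH1, of the same list as GLI2, was at 107 to 244 TPM. Neither MITF nor PTCH1 was past 4-fold in any pair of lines. Citing earlier work, the authors class CHLA 02, CHLA 04 and CHLA 05 with the sonic hedgehog subgroup. They class CHLA 06 with the group that holds the MYC and TYR subgroups. Subgroup was not tested here. SMARCB1 was detected at 13.5 to 26.2 TPM and SMARCA4 at 104 to 342 TPM. The authors describe all 4 lines as without SMARCB1 expression, citing earlier work. TPM summed over transcripts does not show whether intact SMARCB1 transcript or protein was present.

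Of the members, 7 reached 1 TPM in at least 1 line, and EGFR, ERBB2 and ERBB3 did so in every line. Over the 6 pairs of lines, 14 of the 48 differences (8 members in each pair) were past 4-fold, and 10 of these lay in the 3 pairs without CHLA 02. Of all genes tested, 4.18% to 14.4% were past 4-fold in a pair, in either direction. NRG1 and ERBB4 passed in 4 pairs each, and EGFR and NRG2 in 3 pairs each. No pair passed for NRG3, NRG4, ERBB2 or ERBB3. Between the highest and the lowest line, 4 of the 7 tested members differed by 4-fold or more, as did 20.9% of all genes tested.

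**Figure D1:**
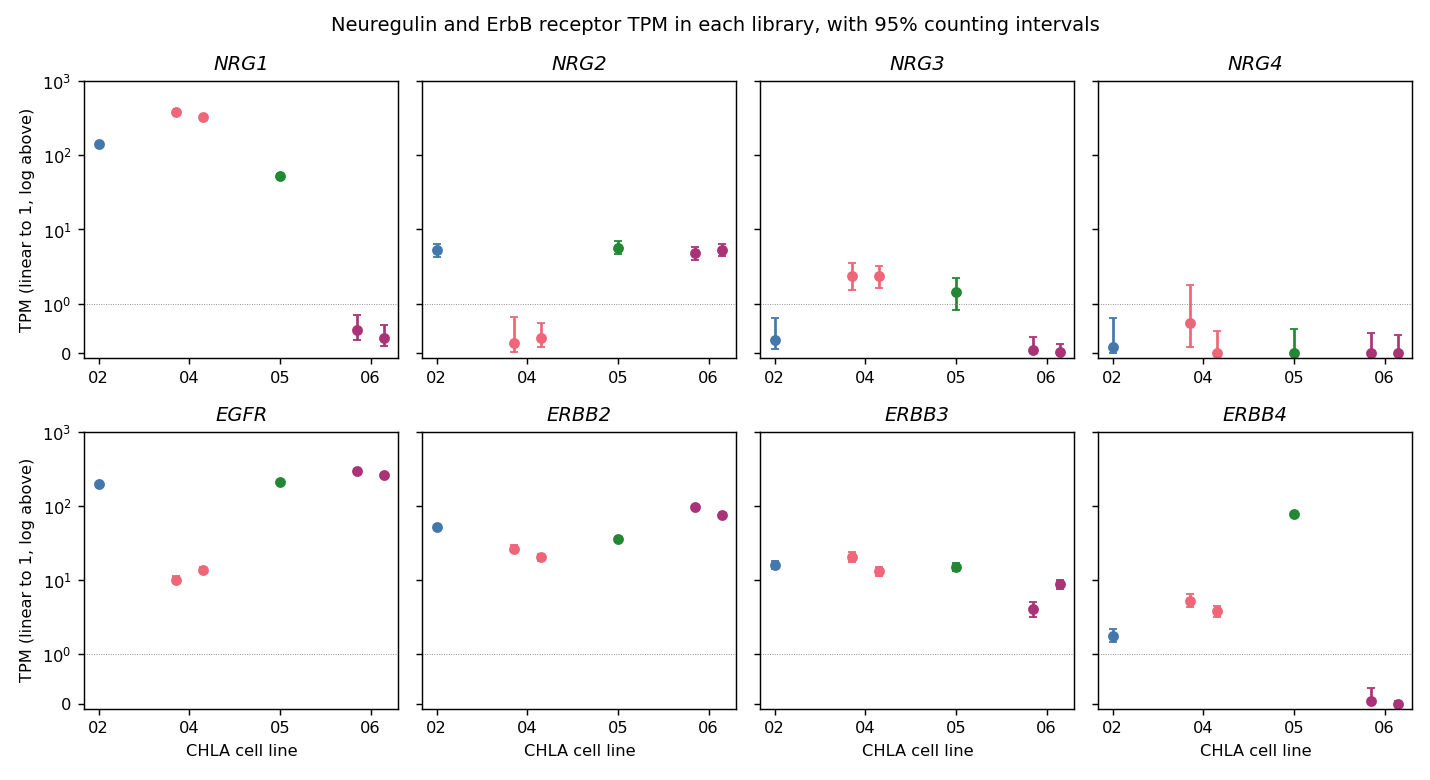
TPM of the 4 neuregulins (top) and 4 ErbB receptors (bottom) in the 6 libraries, on an axis that is linear up to 1 TPM (dotted line) and logarithmic above, with 95% exact Poisson intervals as bars. NRG1 stands at 384 and 325 TPM in CHLA 04 and under 1 TPM in CHLA 06, EGFR is lowest in CHLA 04, and ERBB4 is highest in CHLA 05 at 76.9 TPM.

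NRG1, the neuregulin that binds ERBB3 and ERBB4 and drives Schwann cell growth, was the most abundant neuregulin in 3 of the lines. NRG1 (ENSG00000157168, GRCh38 chr8:31639386-32767959, plus strand) had 143 TPM in CHLA 02, 384 and 325 TPM in CHLA 04, 52.4 TPM in CHLA 05, and 0.468 and 0.305 TPM in CHLA 06. The lines did not overlap, and the order CHLA 04, CHLA 02, CHLA 05, CHLA 06 held beyond the counting intervals at each step. In CHLA 04 this placed NRG1 at the 97.9th and 97.4th percentile of the genes detected in the library. In CHLA 06 only 15 and 9 reads fell on the gene, against 6054 and 9401 in CHLA 04. Pooled over technical replicates, the read rates (reads per 1e+06 transcript reads, not corrected for transcript length) were 916-fold higher in CHLA 04 than in CHLA 06 (95% interval 615 to 1430) and 6.82-fold higher than in CHLA 05 (6.45 to 7.22). The range of NRG1 over lines was 8.0 on the log2(TPM + 1) scale, at the 99.6th percentile of the genes tested, whose median range was 1.02.

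NRG1 was past 4-fold in CHLA 04 over CHLA 06, a direction taken by 7.96% of all genes tested, and in CHLA 05 over CHLA 06, taken by 8.2%. It was also past 4-fold in CHLA 02 over CHLA 06 (3.92% of genes) and in CHLA 04 over CHLA 05 (2.68%). CHLA 04 exceeded CHLA 02 by 1.30 on the log2(TPM + 1) scale, which was short of 4-fold.

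NRG1 has several first exons that give proteins with different amino-terminal parts, called types I, II and III. Type III neuregulin stays in the membrane and is known for the control of myelin thickness, whereas type I and type II are shed. Transcripts that start at the type I first exons held 65.4% of NRG1 TPM in CHLA 02, 61.9% and 69.0% in CHLA 04 and 67.6% in CHLA 05. Those that start at the type II first exons held 9.94%, 14.3%, 8.36% and 8.27% in the same order. The type III first exon held 6.08%, 7.62%, 5.54% and 4.28%. The 3 lines that expressed NRG1 above 1 TPM all had type I as the largest share, although the level of the gene differed between them. Of the NRG1 transcripts, only the type I transcript NRG1-202 runs to chr8:32767959, and the next one ends at chr8:32765030. Reads past that point count as type I whatever the first exon of their RNA, so the type I share rests partly on the annotation.

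**Figure D2:**
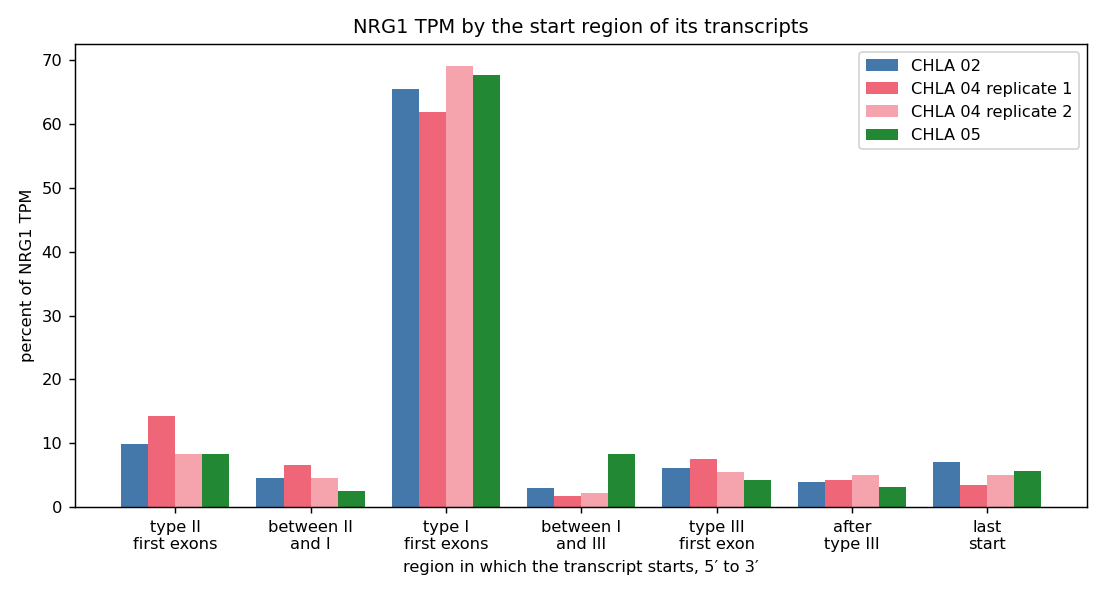
Percent of NRG1 TPM (vertical axis) held by transcripts that start in each region of the gene (horizontal axis, 5′ to 3′), in the 4 libraries of the 3 lines with NRG1 above 1 TPM. Type I first exons hold 61.9% to 69.0% in all 4 libraries, and every other region holds less than 15%.

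One transcript made up most of the type I signal. NRG1-202 (ENST00000356819, 12 exons, 5931 bp) had 81.3 TPM in CHLA 02, 187 and 194 TPM in CHLA 04 and 28.5 TPM in CHLA 05, which was 48.7% to 59.7% of the gene in those libraries. In CHLA 06 it had 0.261 and 0.0987 TPM, from 12 and 5 reads. NRG1-215 (ENST00000523079), another type I transcript, had 43.3 TPM in the first replicate of CHLA 04 and 23.4 TPM in the second. Within one line, therefore, technical replicates differed more for NRG1-215 than for NRG1-202.

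The EGF-like domain of neuregulin 1 ends in an alpha or a beta variant through alternative exons, and the beta form is known to bind its receptors more tightly. Transcripts with the beta exon and not the alpha exon held 80.5% of NRG1 TPM in CHLA 02, 82.5% and 81.9% in CHLA 04 and 77.2% in CHLA 05. Those with the alpha exon and not the beta exon held 4.57%, 5.04%, 5.97% and 6.47%. Most beta transcripts skipped the 24-base exon of the beta 1 form, as the beta 2 form does, and these held 63.4%, 60.5%, 67.0% and 63.0% of NRG1 TPM. The beta 1 splice held 6.99%, 5.17%, 5.25% and 4.41%. NRG1-202 has the beta exon without the 24-base exon, so reads on the 3′ end that it alone covers count as this splice whatever their exons. How reads that match several transcripts were divided is not stated in the sources used here. These shares therefore carry an error that the replicates measure only in part.

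Reads on LTR elements, counted by the authors in a separate mapping, gave a second view of the same loci. Retroviral long terminal repeats (LTRs) are scattered through introns, and 160 of the 162 LTR elements within NRG1 overlapped no exon of the gene. LTR reads there numbered 2074 in CHLA 02. CHLA 04 had 2847 and 3448 of them, CHLA 05 had 413, and CHLA 06 had 0 and 2. Per 1e+06 LTR reads and kb of LTR this was 78.9, 142, 119, 17.7, 0 and 0.0736, beside an average of 3.74 over all LTR elements. The order of the lines was that of the NRG1 transcripts. Elements in the sense orientation of the gene held 2047, 2820, 3410 and 392 of the reads in the first 4 libraries. The element with most reads was an MLT1E2 element at chr8:32006481-32006958, in the sense orientation and outside the exons, with 80, 140, 109, 18, 0 and 0 reads.

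A single element of the HML-2 type, an LTR5_Hs at chr8:32093047-32093253 in the sense orientation, lay within NRG1. LTR5_Hs is the LTR of the youngest human endogenous retroviruses, the group studied by the authors. CHLA 02 had 26 reads on it, CHLA 04 had 36 and 46, CHLA 05 had 2, and both libraries of CHLA 06 had 0. None of the other 7 members held an element named LTR5_Hs or HERVK-int.

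The same comparison was made for the receptors. LTR elements within EGFR, 18 in number and none of them on an exon, had 174 reads in CHLA 02, 6 and 11 reads in CHLA 04, 161 reads in CHLA 05, and 368 and 354 reads in CHLA 06. Of these, an LTR19A element at chr7:55026410-55026866 had 102, 4, 7, 85, 229 and 217 reads. LTR elements within ERBB4 had 17, 31, 32, 740, 0 and 2 reads in the same order of libraries. ERBB2 and ERBB3 held no LTR element. LTR reads in NRG3 were few, between 0 and 59 per library, and in NRG2 there were at most 2.

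**Figure D3:**
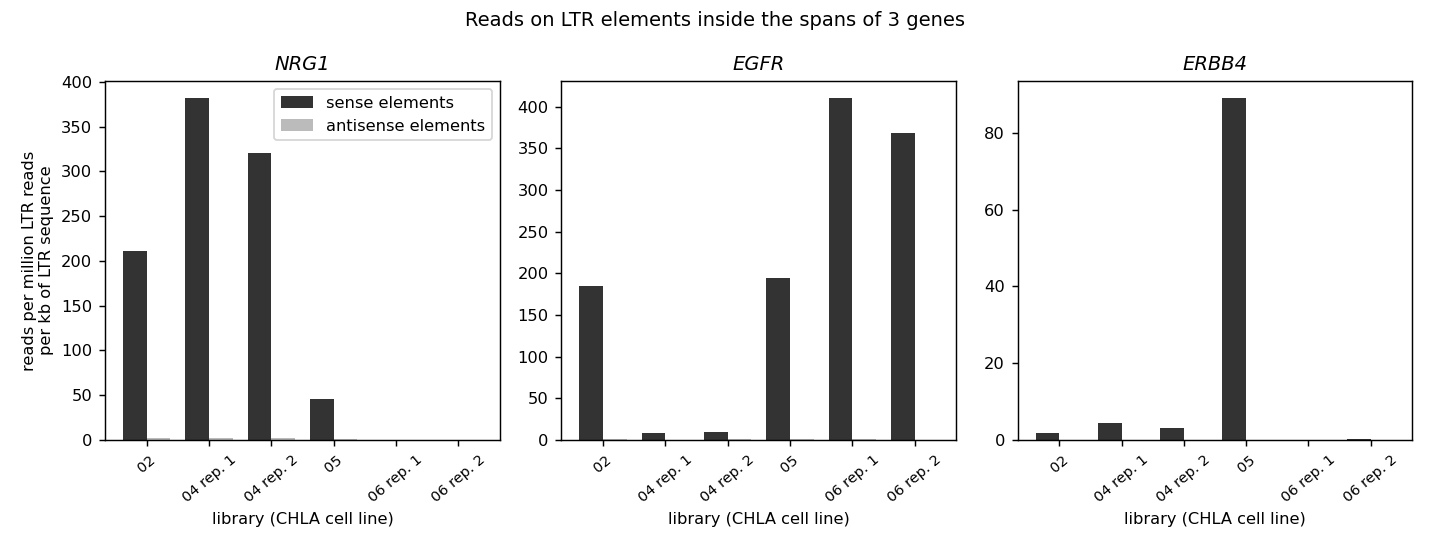
Reads per 1e+06 LTR reads and kb of LTR (vertical axis) on LTR elements in the sense (black) and antisense (grey) orientation within NRG1, EGFR and ERBB4, in the 6 libraries. Sense elements of NRG1 are highest in CHLA 04, those of EGFR in CHLA 06 and those of ERBB4 in CHLA 05, and antisense elements stay near 0.

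NRG2, a neuregulin of neurons that binds ERBB3 and ERBB4, was low in CHLA 04 alone. NRG2 (ENSG00000158458, chr5:139846779-140043299, minus strand) had 5.28 TPM in CHLA 02, 0.20 and 0.311 TPM in CHLA 04, 5.71 TPM in CHLA 05, and 4.79 and 5.34 TPM in CHLA 06. Only 2 and 8 reads were found in CHLA 04, against 101 to 113 in the other libraries. The counting intervals of CHLA 02, CHLA 05 and CHLA 06 overlapped, so those lines could not be put in order. NRG2 read rates were 17.9-fold higher in CHLA 05 than in CHLA 04 (95% interval 9.34 to 38.3). NRG2 and EGFR were past 4-fold in each line over CHLA 04, a direction taken by 4.7% of genes for CHLA 02, 4.33% for CHLA 05 and 6.49% for CHLA 06. The most abundant NRG2 transcript was NRG2-209, at 2.85 TPM in CHLA 02 and 2.76 TPM in CHLA 05. With this transcript alone, or with a pseudocount of 2 in place of 1, none of the 3 NRG2 differences from CHLA 04 was past 4-fold, and with protein-coding transcripts only that of CHLA 06 was 1.99 on the log2 scale in place of 2.27.

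NRG3, a ligand of ERBB4 in the brain, was low in CHLA 04 and CHLA 05 and near the limit of detection in CHLA 02 and CHLA 06. NRG3 (ENSG00000185737, chr10:81875314-82987179, plus strand) had 0.275 TPM in CHLA 02, 2.36 and 2.33 TPM in CHLA 04, 1.45 TPM in CHLA 05, and 0.0597 and 0.0332 TPM in CHLA 06. It was highest in CHLA 04, where 24 and 37 reads were found, and CHLA 06 had 1 read in each library. Counting intervals of CHLA 04 and CHLA 05 overlapped. NRG3-201 was its most abundant transcript, with 0.657 and 1.01 TPM in CHLA 04.

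NRG4, a ligand of ERBB4 known from fat and other tissues, was not detectable at this depth in most libraries. NRG4 (ENSG00000169752, chr15:75935969-76059795, minus strand) had 0.129 TPM in CHLA 02, from 1 read, 0.604 TPM in the first replicate of CHLA 04, from 3 reads, and 0 in the other 4 libraries. A count of 0 allows up to 0.300 to 0.392 TPM there, the level of 3 reads. FBXO22, on the opposite strand of the same region, was at 29.0 to 55.5 TPM. LTR reads within NRG4 lay on elements antisense to the gene, 4 to 17 per library, apart from 1 read in CHLA 05.

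EGFR, the receptor of EGF, TGF-alpha and related ligands, was high in 3 lines and low in CHLA 04. EGFR (ENSG00000146648, chr7:55019021-55256620, plus strand) had 199 TPM in CHLA 02, 10.1 and 13.8 TPM in CHLA 04, 209 TPM in CHLA 05, and 299 and 260 TPM in CHLA 06. The 2 libraries of CHLA 04 lay far below the other 4. EGFR read rates were 25.3-fold higher in CHLA 06 than in CHLA 04 (95% interval 23.9 to 26.9), 18.2-fold higher in CHLA 05 (17.2 to 19.4) and 17.8-fold higher in CHLA 02 (16.7 to 18.9). Its range over lines was 4.43 on the log2(TPM + 1) scale, at the 95th percentile of genes tested. CHLA 05 and CHLA 02 differed by 1.026-fold in reads per 1e+06 (1.001 to 1.052), less than the difference between technical replicates of CHLA 06.

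As a sum, markers of epithelium were lowest in CHLA 04, as EGFR was, but differed between CHLA 02 and CHLA 05, where EGFR was close. This did not hold for each marker. KRT8 had 0.0721 TPM in CHLA 05, below the 0.111 and 0.188 TPM of CHLA 04. The summed TPM of EPCAM, CDH1, KRT8, KRT18 and KRT19 was 212 and 206 in CHLA 06 and 128 in CHLA 02, against 12.9 for CHLA 05 and 0.111 and 0.303 for CHLA 04. In CHLA 05, where EGFR was high, CDH1 alone made up 12.4 TPM of the sum and the keratins were at 0.110 TPM or less. CDH1 was at 0 in CHLA 02 and at 0.0739 TPM or less in CHLA 06, where KRT8 had 81.6 and 79.3 TPM. Their part in the difference in EGFR was not tested.

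EGFR-201 (ENST00000275493, 28 exons), which encodes the full receptor, held 72.1% to 93.4% of EGFR TPM in the 6 libraries. EGFR-203 (ENST00000344576), which has 16 exons and ends at chr7:55171045, well before the end of EGFR-201 at chr7:55211628, had 9.40 TPM in CHLA 02, 0.248 and 0.405 TPM in CHLA 04, 8.78 TPM in CHLA 05, and 6.36 and 8.17 TPM in CHLA 06. EGFR-AS1, a gene on the opposite strand, was listed at 0 in every library.

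ERBB2, the receptor without a ligand and the usual partner of the others, was present in every line. ERBB2 (ENSG00000141736, chr17:39687914-39730426, plus strand) had 52.1 TPM in CHLA 02, 26.6 and 20.3 TPM in CHLA 04, 35.7 TPM in CHLA 05, and 97.0 and 75.5 TPM in CHLA 06. CHLA 06 was highest and CHLA 04 lowest, with 86.2 ± 15.2 and 23.4 ± 4.48 TPM (SD, n = 2 technical replicates). The range of 1.84 on the log2(TPM + 1) scale fell short of 4-fold, but it was 2.04 without the first replicate of CHLA 04, 2.00 without the second of CHLA 06, 2.02 with protein-coding transcripts only and 3.17 with the most abundant transcript only. ERBB2 reads were spread over 21 transcripts, and the most abundant, ERBB2-218, held 6.20% to 32.9% of the gene. MIEN1 and PGAP3 overlap ERBB2 on the opposite strand, at 28.5 to 70.7 and 10.96 to 20.2 TPM.

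ERBB3, a receptor of NRG1 and NRG2, had 20.5 TPM or less in every library, at the 35.4th to 54.4th percentile of the genes detected. ERBB3 (ENSG00000065361, chr12:56079857-56103505, plus strand) had 16.1 TPM in CHLA 02, 20.5 and 13.1 TPM in CHLA 04, 15.04 TPM in CHLA 05, and 4.04 and 8.75 TPM in CHLA 06. The 2 technical replicates of CHLA 04 did not overlap in their counting intervals, and CHLA 02 and CHLA 05 lay between them, so these 3 lines could not be put in order. The technical replicates of CHLA 06 differed by 0.95 on the log2(TPM + 1) scale, more than the 95th percentile of all genes tested (0.72), so its distance from the other lines was uncertain. ERBB3-201 (ENST00000267101), the transcript with all 28 exons, had 0.393 to 1.96 TPM, and 26.2% to 40.8% of ERBB3 TPM lay on transcripts annotated with a retained intron. SOX10, a transcription factor of Schwann cells, in which ERBB3 is known, was at 0.0816 TPM or less in all libraries.

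ERBB4, the receptor of all neuregulins with an active kinase, was highest in CHLA 05. ERBB4 (ENSG00000178568, chr2:211375717-212538841, minus strand) had 1.79 TPM in CHLA 02, 5.28 and 3.80 TPM in CHLA 04, 76.9 TPM in CHLA 05, and 0.0589 and 0 TPM in CHLA 06. CHLA 05 held 3849 reads, and the 2 libraries of CHLA 06 held 1 read between them. ERBB4 read rates were 29.8-fold higher in CHLA 05 than in CHLA 04 (95% interval 26.0 to 34.3) and 40.4-fold higher than in CHLA 02 (32.9 to 50.04). In TPM, which corrects for the length of the transcripts that the reads were assigned to, CHLA 05 exceeded CHLA 04 by 16.9-fold, below the interval of the read ratio, and CHLA 02 by 42.9-fold. The ratio of CHLA 04 to CHLA 06 was 310 in read rates (55.1 to 12300) and 154 in TPM, and this difference was not past 4-fold with a pseudocount of 2 or with the most abundant transcript only. ERBB4 was past 4-fold in CHLA 05 over CHLA 02, a direction taken by 4.25% of genes, and in CHLA 05 over CHLA 04 and over CHLA 06 and in CHLA 04 over CHLA 06, whose shares of genes stand above.

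Genes of oligodendrocyte precursors were also highest in CHLA 05. OLIG1 had 31.9 TPM there and at most 2.28 TPM elsewhere, and OLIG2 had 14.2 TPM and at most 1.54 TPM elsewhere. PDGFRA, a receptor of oligodendrocyte precursors, had 24.9 TPM in CHLA 05 and 2.57 to 16.2 TPM in the other libraries. SOX10, also a gene of this lineage, was at 0 in CHLA 05. Their part in the ERBB4 difference was not tested.

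Alternative exons of ERBB4 change how the receptor is cut and which partners it binds, and their sequences are shown because the levels that follow are given by these forms. The JM-a exon holds the site at which ADAM17 cleaves the receptor, and the JM-b exon replaces it. The CYT-1 exon adds a binding motif for PI 3-kinase, Y-x-x-M, whose codons are in capitals. All are on the minus strand of GRCh38.
JM-a exon, chr2:211657754-211657828: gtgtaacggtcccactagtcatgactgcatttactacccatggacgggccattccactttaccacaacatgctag
JM-b exon, chr2:211657950-211657994: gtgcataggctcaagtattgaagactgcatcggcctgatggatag
CYT-1 exon, chr2:211387945-211387992: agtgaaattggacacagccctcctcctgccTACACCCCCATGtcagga

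Transcripts with the JM-a exon had 57.3 TPM in CHLA 05 and those with the JM-b exon 11.5 TPM. Of the JM-a TPM in CHLA 05, 14.0 lay on ERBB4-208, which is annotated with a retained intron. In CHLA 04 the JM-a transcripts had 2.51 and 1.40 TPM, from 79 and 95 reads. The JM-b transcripts there had 1.94 and 1.32 TPM, from 18 and 20 reads, all on ERBB4-201. That transcript has 2194 bp, against 12084 bp for ERBB4-204 with the JM-a exon. The 2 forms were therefore closer there in TPM, which corrects for length, but not close in reads. In CHLA 02 the JM-a and JM-b transcripts had 1.52 and 0.273 TPM, from 91 and 4 reads. In CHLA 05, ERBB4-204 (ENST00000436443), whose exons join without the CYT-1 exon, had 40.5 TPM, whereas transcripts with the CYT-1 exon had 2.85 TPM. In CHLA 04 the same 2 forms had 0.881 and 0.397 TPM in the first replicate and 0.552 and 0.522 TPM in the second. The transcripts with the CYT-1 exon rested on 26 reads in CHLA 02 and 20 and 43 in CHLA 04, against 222 in CHLA 05. These values come from whole transcripts, which share most of their sequence, and not from reads across the exon junctions.

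Receptor sums differed between the lines in size and make-up. The 4 receptors summed to 269 TPM in CHLA 02, 62.5 and 51.0 TPM in CHLA 04, 337 TPM in CHLA 05, and 400.4 and 344 TPM in CHLA 06. EGFR made up 74.0% of the sum in CHLA 02, 62.1% of it in CHLA 05 and 74.8% and 75.5% of it in CHLA 06. Its share was 16.2% and 27.1% in the libraries of CHLA 04. There ERBB2 held the largest part, 42.6% and 39.7%, and ERBB3 held 32.8% and 25.7%. ERBB4 held 22.8% in CHLA 05 and 8.45% or less elsewhere.

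NRG1 was higher and EGFR lower in CHLA 04 than in CHLA 06. NRG1 exceeded EGFR 29.6-fold in CHLA 04, while in CHLA 05 it was 0.250 and in CHLA 06 0.00138 of the EGFR level. The ratio of NRG1 to ERBB2 was 15.1 for CHLA 04, 2.75 for CHLA 02, 1.47 for CHLA 05 and 0.00448 for CHLA 06.

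**Figure D4:**
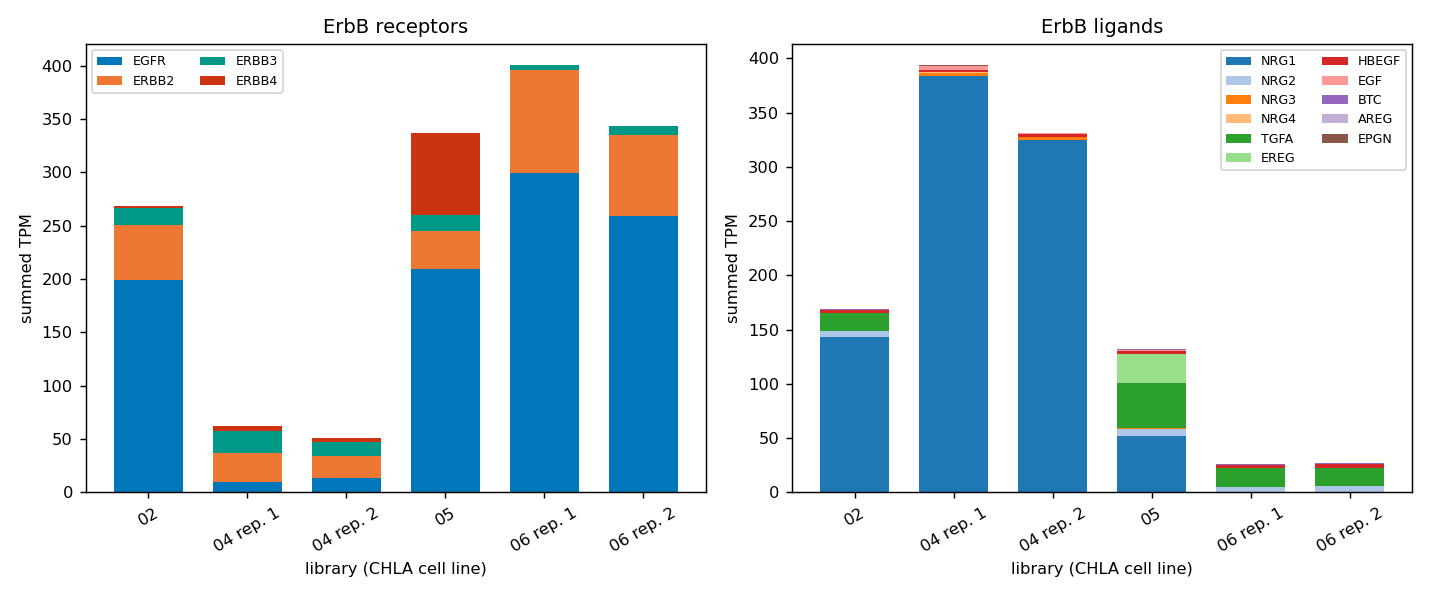
Summed TPM (vertical axis) of the 4 ErbB receptors (left) and of the 11 ErbB ligands (right) in the 6 libraries, stacked by gene. The receptors sum to 51.0 TPM in the second replicate of CHLA 04 and to 400.4 TPM in the first of CHLA 06, and NRG1 fills nearly all of the ligand bar in CHLA 04.

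Among the other ErbB ligands, TGFA and EREG differed most between lines. TGFA, which binds EGFR, had 16.6 TPM in CHLA 02, 0 and 0.186 TPM in CHLA 04, 40.9 TPM in CHLA 05 and 17.2 TPM in both libraries of CHLA 06. EREG, which binds EGFR and ERBB4, had 27.1 TPM in CHLA 05 and 0.0627 TPM or less elsewhere. TGFA held 65.6% and 62.5% of all ErbB ligand TPM in CHLA 06. HBEGF was between 1.97 and 3.68 TPM in every library. EGF reached 4.41 TPM in 1 replicate of CHLA 04 and 1.33 TPM in the other, with 0.725 TPM or less elsewhere. BTC reached 1.20 TPM in CHLA 05, and AREG and EPGN stayed under 1 TPM in all libraries.

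Proteins that process, relay or remove ErbB signals made up the rest of a list of 36 genes. Of these 36, 34 had at least 1 TPM in a line and 28 in every line, and 5 differed by 4-fold or more between the highest and the lowest line, namely TGFA, EREG, RHBDF2, ERRFI1 and LRIG3, against 20.9% of all genes tested. None of the 13 adaptors did. Among these, SHC1 was at 512 to 903 TPM and PIK3R3 at 166 to 268 TPM. The proteases ADAM17 and FURIN, which cut the ligands, were at 39.2 to 60.9 and 35.6 to 77.6 TPM. The median range over lines was 0.80 on the log2(TPM + 1) scale for the list and 1.02 for all genes tested.

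RHBDF2, the iRhom2 protein that brings ADAM17 to the cell surface, had 13.0 TPM in CHLA 02, 0.0660 and 0 TPM in CHLA 04, 1.39 TPM in CHLA 05, and 19.6 and 22.3 TPM in CHLA 06. It was past 4-fold in CHLA 02 over CHLA 05, a direction taken by 4.64% of genes but by no member, and in CHLA 06 over CHLA 05, taken by 5.21% and again by no member. ERRFI1, a feedback inhibitor of EGFR, had 117 TPM in CHLA 02, 80.8 and 184 TPM in CHLA 04, 370.3 TPM in CHLA 05, and 47.0 and 59.7 TPM in CHLA 06. LRIG3, of a family of proteins that bind ErbB receptors, had 6.98 TPM in CHLA 05, 3.37 and 4.84 TPM in CHLA 04, and 0.0667 TPM or less in CHLA 06. ERBB2IP, a scaffold protein that binds ERBB2, was at 46.6 to 147 TPM. Neither a member nor a gene of this list was past 4-fold in CHLA 04 over CHLA 02 (1.05% of all genes) or in CHLA 06 over CHLA 02 (0.268%).

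**Figure D5:**
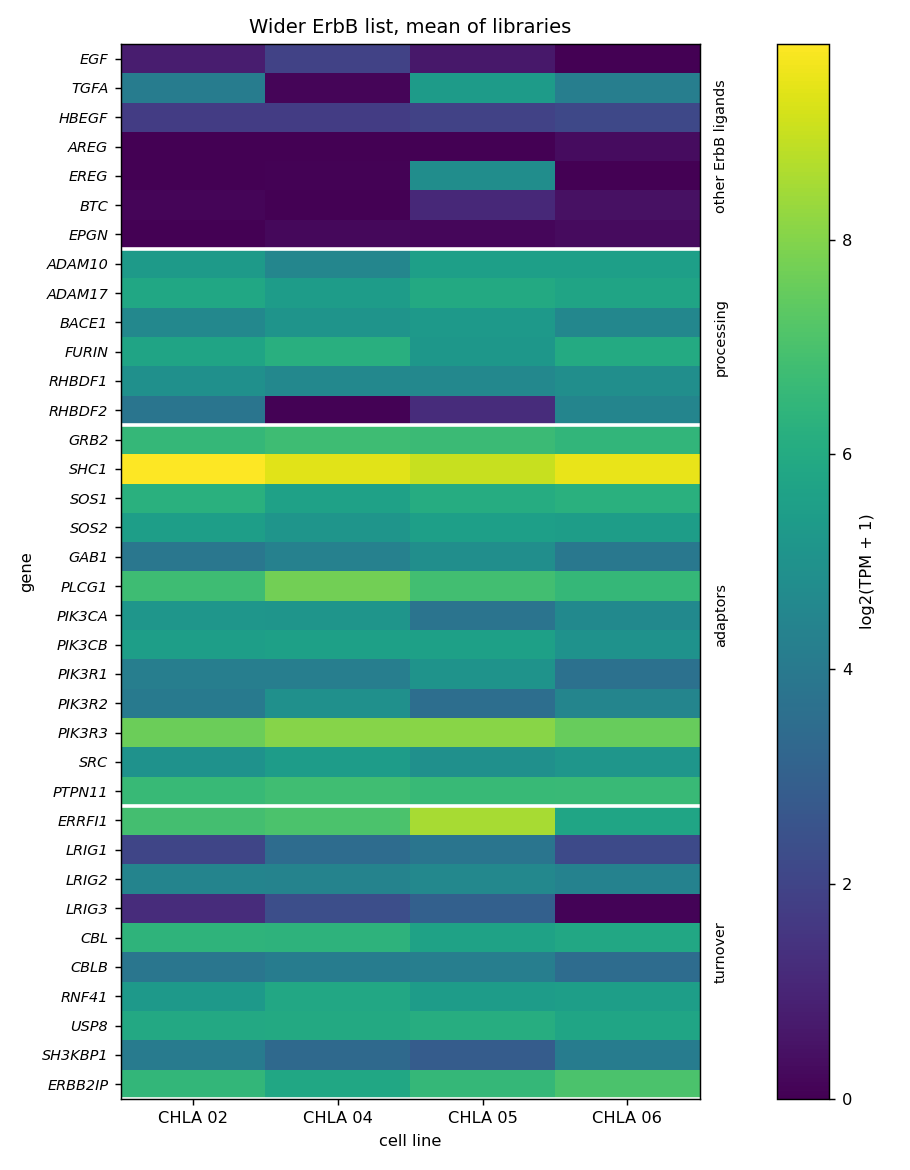
Mean log2(TPM + 1) (colour) of the 36 genes of the ErbB list (rows, by role) in the 4 lines (columns). Adaptors are close in all lines, whereas TGFA, EREG and RHBDF2 are near 0 in at least 1 line.

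Genes whose centred log2(TPM + 1) profile lay nearest to a member over the 6 libraries were listed as a description. Nearest to NRG1 were BST2, BMP7 and SEMA5B, with root mean square differences of 0.15, 0.16 and 0.21, and these 3 were also the nearest without CHLA 02. Nearest to ERBB4 were ACTN2, C1orf61 and SALL3 (0.27, 0.27 and 0.28), of which C1orf61 alone was among the 3 nearest without CHLA 02. Nearest to EGFR were HERC2P4 (0.19), a pseudogene that can share reads with its near-identical copies, EPHX2 (0.21) and MTARC2 (0.27), matched by its identifier ENSG00000117791. Nearest to NRG2 were CEBPD, SUSD1 and PYGL (0.13, 0.15 and 0.18). The 6 libraries come from 4 lines, so many genes share such a profile.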

How the data were processed

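Total RNA of 4 AT/RT cell lines was sequenced in 6 libraries (stranded TruSeq, 125 bp paired ends). The authors trimmed reads with Trimmomatic after CASAVA 1.8.2 and FastQC, mapped them to GRCh38 with the CLCbio RNA-Seq tool under default parameters, and deposited TPM per transcript of Ensembl release 82. TPM per LTR element came from a separate mapping and was scaled over LTR elements alone. How multi-mapping reads and strand were handled is not given in the sources used here.

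TPM was summed by gene identifier. The read number of a feature was its TPM divided by that of 1 read (whole to within 0.05), a step tested on simulated data, and gave exact Poisson intervals. Ratios of reads per 1e+06 transcript reads have exact conditional binomial intervals, with technical replicates pooled. Lines were compared on the mean of technical replicates as log2(TPM + 1), with 4-fold as the limit and without a test. Exons and biotypes came from the files and GENCODE 44, which held 113 of the 119 transcripts, 109 of them with the same junctions. Sequences were read from the GRCh38 genome. All members were named, with the other ErbB ligands, the 2 genes of highest mean TPM in each other role, genes past 4-fold, NRG1 transcripts with at least 10% of the gene and the 3 genes nearest to members with a 4-fold range. Genes outside this rule (GLI2, MYC and other markers, overlapping genes, EGFR-203 and ERBB3-201) were named after their values were seen. Some marker genes are not reported here. Members and lists were chosen with earlier results of these data known. Python 3.11.15, numpy 2.4.6, pandas 2.3.3 and scipy 1.17.1 were used. Alternatives covered transcript choice, scaling, pseudocount, fold limit, low values and each technical replicate.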

Additional observations from a re-analysis of the deposited data

How the results depend on the processing

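No difference past 4-fold for a member changed sign under any alternative run on single differences, whereas some below 4-fold did, for NRG2, NRG4, EGFR and ERBB3. The number of members past 4-fold was 2 for CHLA 04 against CHLA 02, and 1 with the most abundant transcript only or a pseudocount of 2. For CHLA 06 against CHLA 04 it was 4, and 2 with a pseudocount of 2. For CHLA 05 against CHLA 02, and for CHLA 06 against CHLA 02, it was 1, and 2 with a pseudocount of 0.1. With 2-fold in place of 4-fold the counts were 5 for CHLA 04 against CHLA 02, 7 for CHLA 06 against CHLA 04, 2 for CHLA 05 against CHLA 02, 3 for CHLA 06 against CHLA 02 and 5 in place of 2 for CHLA 06 against CHLA 05. The shares of all genes past 2-fold in these pairs were 21.7%, 35.6%, 24.8%, 12.6% and 31.3%. Over all 6 pairs 2-fold gave 26 in place of 14, and over the 3 pairs without CHLA 02, a count added after seeing the data, 16 in place of 10. Leaving out any 1 technical replicate, quantile normalization, the higher replicate, protein-coding transcripts only and no filter on low values kept every such count within 1.5 times. Without the first replicate of CHLA 04 or the second of CHLA 06 the count over all pairs was 15, through ERBB2. Of the single differences, 340 moved by less than their spread and 44 by more. That spread came from the SD of technical replicates or, for a line with 1 library, from its counting interval. All 44 arose with the most abundant transcript only, protein-coding transcripts only or quantile normalization. Leaving out a replicate or taking the higher one could hardly exceed that spread, so those settings say little about stability. The cause of the 44 was not tested. No paired analysis was possible because the replicate numbers are technical replicates of different lines and no test was run. With 1 biological sample per line, the spread between cultures is unknown, and the depth limits NRG3 and NRG4 in all lines, NRG2 in CHLA 04, and NRG1 and ERBB4 in CHLA 06.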
